A study of Mus musculus with 6 samples.

Results

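YAP6SA against GFP was the comparison examined, in RNA of cardiomyocyte (CM) nuclei from postnatal mouse hearts. Its members were 4 of the 6 libraries of the series, the 2 labelled YAP6SA and the 2 labelled GFP, chosen by their labels. Of the 54532 genes counted, 12835 entered the test because their median log2 CPM (the count of a gene scaled to the library's total) was over 1 in either group. All animals were wild-type ICR mice that received 1e+11 viral genomes of AAV9 under the skin at postnatal day 6, and hearts were taken at postnatal day 9. The virus carried a cTnT-GFP cassette in the controls and a cTnT-YAP6SA cassette in the YAP6SA group, and the third group of the series received cTnT-YAP5SA. Each group had 1 library in batch 1 and 1 in batch 2, and the replicate number in the labels is the batch number.

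Several features limit these groups as a model. The cTnT promoter, that of cardiac troponin T, drives the cassette in CMs, while the counts hold every nucleus that the pulldown retained. CM nuclei were enriched with an antibody against PCM-1, a protein that coats CM nuclei, and the libraries were poly-A selected and non-directional, so reads do not carry their strand. The labels give 2 hearts for each virus and do not say whether a library is 1 heart or a pool. *Xist*, the noncoding RNA made from the inactive X chromosome of females, was at 0.0524 and 0.406 CPM in the batch 1 libraries of GFP and YAP6SA and at 608 and 637 CPM in those of batch 2. The Y-linked gene *Eif2s3y* was at 383, 228, 357 and 190 CPM in GFP 1, GFP 2, YAP6SA 1 and YAP6SA 2. Both batch 2 libraries therefore held female and male transcripts, and the batches were matched in this respect between the groups. With 2 libraries per group, p-values measure only the spread between these samples.

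YAP is the transcriptional coactivator at the end of the Hippo pathway. The LATS kinases phosphorylate YAP on serines and keep it out of the nucleus, and YAP that escapes them binds TEAD factors on DNA and activates their target genes. In YAP5SA the LATS sites are changed from serine to alanine, and YAP6SA carries in addition a serine-to-alanine change at a residue needed for TEAD binding. Another route that reads the state of the cytoskeleton runs through serum response factor (SRF). Its cofactors, the MRTFs, are held by monomeric actin, and when actin assembles into filaments they enter the nucleus and act with SRF at a DNA element called the CArG box. Known SRF targets are genes of actins, myosin light chains, tropomyosins and actin-binding proteins, and *Srf* itself is one. Postnatal CMs also leave the cell cycle and turn from glycolysis to fatty acid oxidation, which makes cell cycle and metabolic genes of interest at this age.

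The 4 libraries held 16362077 to 19615627 counts in genes. At these totals, without further scaling, 3 counts, the most that an observed 0 allows, correspond to 0.153 to 0.183 CPM (counting error only). The 2 libraries of a group differed well beyond sampling noise, with a chi-square per degree of freedom of 25.3 in GFP and 28.7 in YAP6SA, so neither was a copy of the other. Transcripts of the mitochondrial genome took 1.23% and 1.19% of the counts in GFP and 1.85% and 2.31% in YAP6SA. *Yap1*, the mouse gene of YAP, had 139 and 129 CPM in GFP 1 and GFP 2 and 122 and 129.7 CPM in YAP6SA 1 and YAP6SA 2. These values overlapped, with a log2 fold change of -0.09 and an adjusted p of 0.804 (edgeR quasi-likelihood test), and whether cassette reads were counted on *Yap1* was not tested.

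In YAP6SA OE CMs 168 genes (1.31% of those tested) were called higher than in GFP and 68 (0.53%) were called lower. A gene was called when its adjusted p was under 0.05 in edgeR's quasi-likelihood test with batch as a term, where the adjustment (Benjamini-Hochberg) ran over all 12835 genes. Before adjustment 975 genes (7.6%) were higher and 726 (5.66%) were lower at a p under 0.05. The median log2 fold change of the called genes was 0.78 for those higher and -0.79 for those lower, and 45 and 23 of them changed by more than 2-fold. All 236 called genes had the same direction in both batches, a property that the calling itself favours. In 151 of the 168 and 63 of the 68, both YAP6SA libraries lay outside the range of the GFP libraries, as did 4436 of all tested genes (34.6%). Across all genes the differences of the batches were alike only in part, with the same sign in 58.9% and a Pearson correlation of 0.283, where the genes of a batch share their libraries.

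**Figure D1:**
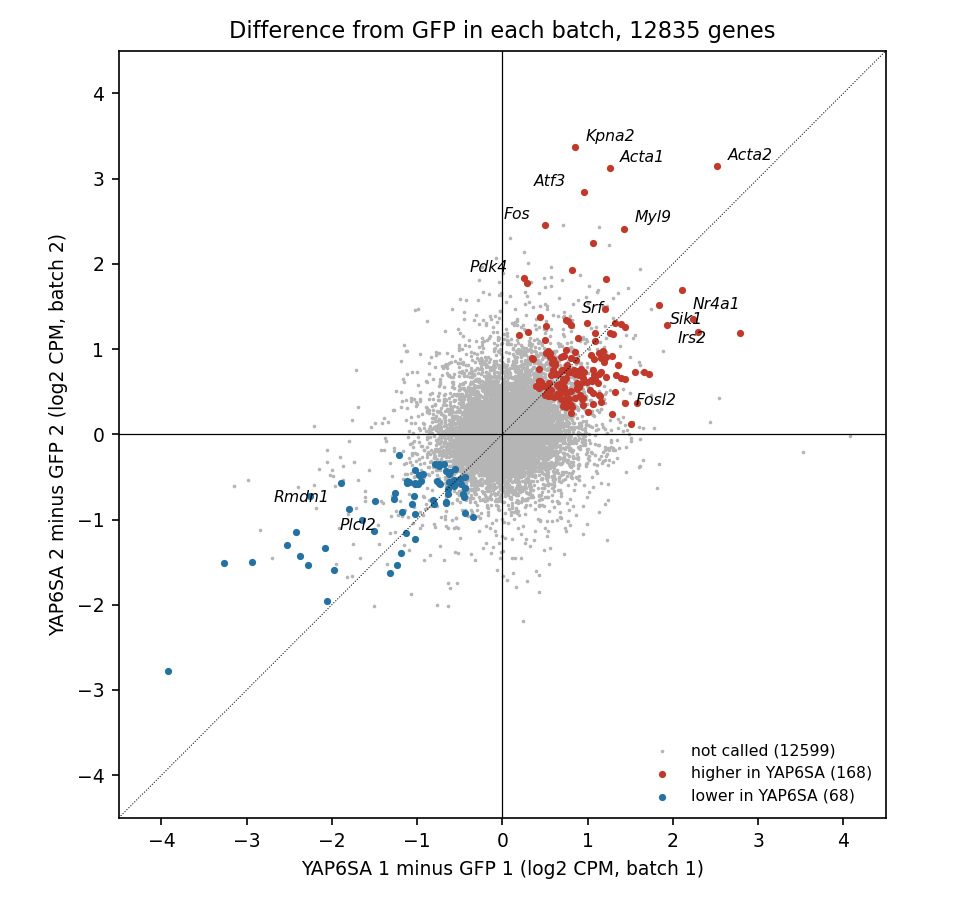
Difference in log2 CPM between YAP6SA and GFP in batch 1 (horizontal axis) and in batch 2 (vertical axis), 1 point per tested gene, with the 168 genes called higher in red and the 68 called lower in blue. *Acta2* lies at 2.52 and 3.15, close to the dotted line of equal change, while *Kpna2*, at 0.85 and 3.37, lies above it and *Fosl2*, at 1.44 and 0.37, below it.

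The count of calls rested on the batch term and on these 4 libraries. Without the batch term 4 genes were called, *Acta2*, *Nr4a1*, *Sik1* and *Srf*, all higher, although 220 of the 236 still had an unadjusted p under 0.05. In a fit that added the YAP5SA libraries 6 genes were called, the same 4 with *Myl9* and *Irs2*, and 224 of the 236 had an unadjusted p under 0.05. DESeq2 called 74 genes higher and 27 lower, 100 of them among the 236. Fits with a GFP or YAP6SA library left out included the YAP5SA libraries and left a lone library in its group. All of the 236 genes that had a value kept their direction in these fits. The values stated below for a library left out come from them.

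The genes called higher and lower differed in kind. Of the higher genes 150 (89.3%) were protein coding, of the lower genes 45 (66.2%), and of all tested genes 92.4%. Among the lower genes 20, and among the higher genes 13, had only a clone or model name. The protein-coding genes called higher were short, with a median span from start to end of 11.03 kb, against 34.97 kb for those called lower and 25.19 kb for all. When all protein-coding genes were put into 5 bins of span, the shortest bin had a median log2 fold change of 0.09 with 65 genes higher and 6 lower, and the longest had -0.03 with 14 higher and 13 lower. The share of short genes moved with the calls, and its part in them was not tested.

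SRF targets, the genes of actins and their partners, formed the group with the most calls. Of 37 listed targets of SRF and its MRTF cofactors, 34 were tested, 15 were called higher and 1 was lower at an unadjusted p under 0.05 without being called (1.31% of all tested genes were called higher). Their median log2 fold change was 0.52, with 0.59 in batch 1 and 0.41 in batch 2, and that of all tested genes was 0. DESeq2 called 11 of them higher and limma-voom called 16, while without the batch term the calls were *Acta2* and *Srf*. The list was drawn from known SRF targets, and it was written with earlier results of these data known.

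*Acta2*, the smooth muscle actin gene that is also expressed in fetal CMs, had the largest increase of all genes tested. It had 271 and 141 CPM in GFP 1 and GFP 2 and 1554 and 1251 CPM in YAP6SA 1 and YAP6SA 2. Both YAP6SA libraries were above both GFP libraries, and the log2 fold change was 2.83 (standard error 0.15, adjusted p 5.7e-10). *Acta2* lies at chr19:34241090-34255590 (GRCm38, minus strand). *Srf* itself (chr17:46548329-46556175, minus strand) had 63.1 and 59.2 CPM in GFP and 158 and 146 CPM in YAP6SA OE CMs. Its change was nearly equal in the batches, 1.33 and 1.30, and gave a log2 fold change of 1.31 (standard error 0.12, adjusted p 2.6e-06). *Myl9*, which encodes the regulatory light chain of smooth muscle and nonmuscle myosin, went from 45.6 and 18.4 CPM to 123 and 98.4 CPM, with a log2 fold change of 1.90 (adjusted p 2.2e-06).

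The skeletal actin gene *Acta1*, a fetal actin of the heart, had a GFP library that stood apart. It had 72.3 and 11.3 CPM in GFP 1 and GFP 2 and 173 and 98.8 CPM in YAP6SA 1 and YAP6SA 2. Both YAP6SA libraries were above both GFP libraries, but GFP 2 was low, so the difference was 1.26 in batch 1 and 3.12 in batch 2. The log2 fold change was 2.10 (standard error 0.25, adjusted p 6.9e-05), and it ran from 1.32 without YAP6SA 2 to 3.04 without YAP6SA 1. The other actins changed less. Cardiac actin *Actc1* had 3805 and 3039 CPM in GFP and 5114 and 5158 CPM in YAP6SA, a log2 fold change of 0.60 (adjusted p 0.0279). The cytoplasmic actins *Actg1* and *Actb* had log2 fold changes of 0.67 and 0.62 (adjusted p 0.00726 and 0.0228), from 1656 and 1573 to 2496 and 2645 CPM and from 1108 and 862 to 1422 and 1588 CPM. Without YAP6SA 2 the values of *Actc1* and *Actg1* were 0.31 and 0.44, and without GFP 2 that of *Actb* was 0.40.

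Windows of 250 bases before the RefSeq start of the transcript were searched for the CArG box, and 6 of the 14 SRF targets called higher that had a window held it. Of the 16 targets with a window that were not called, 4 (25%) held it as well, *Fhl1*, *Fhl2*, *Filip1l* and *Vcl*. The 6 windows are shown because SRF binds this element and the genes were called. The sequences are those of RefSeq on GRCm38.p6, 5′ to 3′ on the strand of the gene, and capitals mark the CArG box.
*Acta1* (chr8:123894776-123895025, minus strand): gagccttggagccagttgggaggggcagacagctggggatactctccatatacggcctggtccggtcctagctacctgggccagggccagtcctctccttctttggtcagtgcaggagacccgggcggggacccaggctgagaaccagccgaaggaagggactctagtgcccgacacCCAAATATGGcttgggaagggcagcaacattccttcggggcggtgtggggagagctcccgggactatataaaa
*Actc1* (chr2:114052876-114053125, minus strand): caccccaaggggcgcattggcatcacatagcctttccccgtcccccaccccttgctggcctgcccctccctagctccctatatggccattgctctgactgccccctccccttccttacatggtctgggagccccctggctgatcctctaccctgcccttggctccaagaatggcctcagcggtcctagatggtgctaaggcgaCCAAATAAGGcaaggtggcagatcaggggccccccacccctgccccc
*Actg1* (chr11:120348496-120348745, minus strand): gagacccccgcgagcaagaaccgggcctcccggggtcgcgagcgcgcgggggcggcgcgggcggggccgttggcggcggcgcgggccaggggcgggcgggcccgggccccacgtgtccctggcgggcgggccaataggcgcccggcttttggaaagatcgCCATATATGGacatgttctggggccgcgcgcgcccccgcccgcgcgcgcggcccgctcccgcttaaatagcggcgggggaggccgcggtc
*Myl9* (chr2:156775214-156775463, plus strand): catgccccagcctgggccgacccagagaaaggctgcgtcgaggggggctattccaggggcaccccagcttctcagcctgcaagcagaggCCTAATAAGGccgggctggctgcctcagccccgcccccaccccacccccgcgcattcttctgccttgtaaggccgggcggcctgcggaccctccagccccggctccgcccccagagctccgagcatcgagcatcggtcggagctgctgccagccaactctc
*Cnn2* (chr10:79988350-79988599, plus strand): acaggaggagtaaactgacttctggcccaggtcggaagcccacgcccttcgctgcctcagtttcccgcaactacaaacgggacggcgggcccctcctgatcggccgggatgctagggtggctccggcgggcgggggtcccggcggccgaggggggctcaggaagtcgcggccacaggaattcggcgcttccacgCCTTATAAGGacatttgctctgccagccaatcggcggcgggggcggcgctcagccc
*Srf* (chr17:46556163-46556412, minus strand): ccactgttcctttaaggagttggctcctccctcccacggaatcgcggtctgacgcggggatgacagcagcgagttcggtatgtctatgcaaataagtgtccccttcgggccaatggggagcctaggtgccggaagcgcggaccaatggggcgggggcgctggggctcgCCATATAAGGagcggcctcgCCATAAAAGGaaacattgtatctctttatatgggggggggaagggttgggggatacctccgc
The *Srf* window held 2 matches, at 82 to 73 and at 62 to 53 bases before the start, and the matches of *Actc1*, *Acta1* and *Actg1* began 47, 73 and 90 bases before it.

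Over all genes the element was rare. Of the 12835 tested genes 9714 had a RefSeq window, and 145 of these genes (1.49%) held a CArG box in any of their windows. Counted singly, 1.47% of all 32851 windows held it. Among the genes called higher 12 of 128 with a window (9.38%) held it, and among those called lower 0 of 32. The 6 listed targets shown above are among these 12, and since the list was built from known SRF targets, their share describes the list. The other 6 are on no SRF list, 6 of 114 such higher genes (5.26%), and they were *Dusp5*, *Fbxl22*, *Myadm*, *Myl3*, *Myl6* and *Tceal8*. *Fbxl22*, an F-box protein of the CM Z-disc, had 178 and 129 CPM in GFP and 377 and 293 CPM in YAP6SA, a log2 fold change of 1.14 (adjusted p 1.5e-05). It overlaps *Herc1* on the other strand, with 12835 counts against its 17652. *Myl6*, the essential light chain of nonmuscle myosin, had 440.1 and 320 CPM in GFP and 792 and 623 CPM in YAP6SA, a log2 fold change of 0.91 (adjusted p 0.000291). These genes were named after their values were seen. The window of *Acta2* held no match, and *Actb* was among the genes without an entry. The TEAD motif CATTCC, on either strand, was in a window of 12.8% of the tested genes that had one. The same held for 26 of 128 genes called higher (20.3%) and 4 of 32 called lower (12.5%). A match in these windows is a string of letters and was not tested for binding.

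The further SRF targets called higher encode proteins that bind actin or anchor it. *Cnn2*, a calponin, had 39.8 and 25.9 CPM in GFP and 87.1 and 50.1 CPM in YAP6SA, a log2 fold change of 1.05 (adjusted p 0.000217). *Zyx*, whose product zyxin sits at focal adhesions and Z-discs, had 94.4 and 82.7 CPM in GFP and 199.8 and 129 CPM in YAP6SA, a log2 fold change of 0.87 (adjusted p 0.00081). In both genes each YAP6SA library was above both GFP libraries. *Tpm1*, the main tropomyosin of the sarcomere, rose from 1813 and 1984 CPM to 3049.6 and 3129 CPM (log2 fold change 0.71, adjusted p 0.00499). The focal adhesion and actin genes *Pdlim7*, *Itgb1* and *Wdr1* were called with log2 fold changes of 0.62, 0.62 and 0.55. *Tagln2* and *Csrp1*, at 0.81 and 0.85, were called although their groups overlapped, since YAP6SA 2 (20.2 and 14.98 CPM) was below GFP 1 (22.4 and 15.98 CPM). Without YAP6SA 1 the values of *Cnn2*, *Pdlim7* and *Tagln2* were 0.69, 0.41 and 0.43. The other 19 tested targets were not called. Among them *Myh9* (nonmuscle myosin), *Tln1* (talin) and *Flna* (filamin) had log2 fold changes of 0.04, 0.13 and 0.22, and *Ablim1* was lowest of the list at -0.34. *Tagln*, *Actg2* and *Lmod1*, genes of smooth muscle, did not pass the filter.

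**Figure D2:**
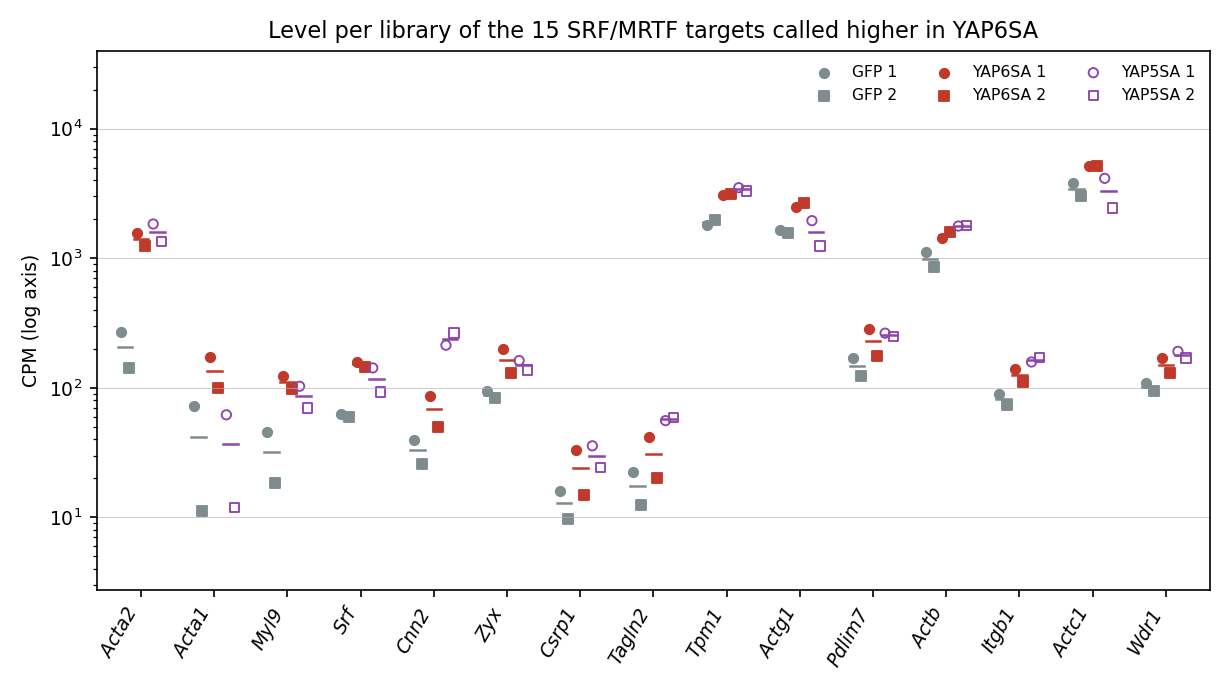
CPM per library (log axis) of the 15 SRF/MRTF targets called higher, with circles for batch 1, squares for batch 2, filled grey for GFP, filled red for YAP6SA, open purple for YAP5SA, and a line at each group mean of 2 libraries. The YAP6SA points of *Acta2* and *Srf* stand clear of GFP in both batches, while for *Acta1* the low GFP 2 point, 11.3 CPM, sets much of the difference.

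The cofactors that act with SRF were not called. *Mrtfa* had 34.1 and 29.2 CPM in GFP and 34.3 and 29.2 CPM in YAP6SA, and *Mrtfb* had 68.2 and 81.01 CPM in GFP and 78.3 and 69.7 CPM in YAP6SA. *Myocd*, the cofactor of heart and smooth muscle, had a log2 fold change of -0.15 with 0.43 in batch 1 and -0.72 in batch 2. Of the 9 genes listed as SRF and its cofactors, *Srf* was the one called.

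Genes of actin filament turnover, some of which are also SRF targets, rose in part. Of 42 tested, 5 were called higher (1.31% of all tested genes were), 11 were higher and 1 lower at an unadjusted p under 0.05, and the median was 0.14. *Dstn*, which encodes the actin-severing protein destrin, had 98.5 and 80.4 CPM in GFP and 208 and 130.4 CPM in YAP6SA, a log2 fold change of 0.89 (adjusted p 0.00052). Its relative cofilin-1, *Cfl1*, had 0.64 (adjusted p 0.028). *Cfl1* (3184 counts) overlaps *Snx32* on the other strand (1838 counts), and reads were not separated by strand. *Gsn* (gelsolin), *Arpc5* (a subunit of the Arp complex that nucleates actin branches) and *Vasp* (which lengthens filaments) were called at 0.60, 0.53 and 0.53, with adjusted p 0.0196, 0.038 and 0.0254. *Gsn* is also a fibroblast marker. Of 30 tubulin and microtubule genes 2 were called, *Tuba1a* at 0.68 and *Map1lc3a* at 0.68, with a list median of 0.15. *Tuba1a* was at 0.17 without YAP6SA 1 and at 1.14 without YAP6SA 2, and *Cfl1* was at 0.33 without YAP6SA 1.

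*Mpdz*, which encodes the scaffold that the study describes as a partner of YAP6SA, had 73.6 and 98.8 CPM in GFP and 87.4 and 88.99 CPM in YAP6SA. The values overlapped and the log2 fold change was 0.05 (standard error 0.13, adjusted p 0.91). Of the 20 genes of named interactors that were tested, 3 were called higher (1.31% of all tested genes were), *Zyx*, *Rbmx* and *Ndufa8*, and the median was 0.12. *Zyx* is also on the SRF list and *Ndufa8* on that of the respiratory chain. The summed level of the 21 listed genes changed by ratios of 1.3 and 0.983 in batches 1 and 2. *Rbmx*, which encodes an RNA-binding protein of splicing, went from 137 and 109 CPM to 210.3 and 193 CPM (log2 fold change 0.72, adjusted p 0.00208). These are RNA levels and do not measure binding.

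Immediate early genes, which cells transcribe within minutes of a stimulus, also held large changes. Of 29 tested, 5 were called higher (1.31% of all tested genes were), and the median log2 fold change was 0.52. At an unadjusted p under 0.05, 16 were higher and 2 lower, where 7.6% and 5.66% of all tested genes were. *Nr4a1*, an orphan nuclear receptor that responds to growth factors and cAMP, had 61.03 and 68.5 CPM in GFP and 263 and 222 CPM in YAP6SA. Its groups stood apart in both batches, by 2.11 and 1.69, and the log2 fold change was 1.90 (standard error 0.13, adjusted p 3.1e-08). *Atf3* and *Fos*, transcription factors of the stress and growth response, changed mainly in batch 2. *Atf3* had 12.8 and 3.71 CPM in GFP and 24.99 and 27.3 CPM in YAP6SA, and *Fos* had 23.1 and 6.77 CPM in GFP and 32.8 and 37.5 CPM in YAP6SA. Their GFP 2 libraries were low, and the differences in batches 1 and 2 were 0.96 and 2.84 for *Atf3* and 0.50 and 2.45 for *Fos*. The log2 fold change of *Fos* was 1.40 (adjusted p 0.0109) and fell to 0.36 without GFP 2, and that of *Atf3* was 1.81 (adjusted p 0.00149) and 0.98 without GFP 2. *Fosl2*, another AP-1 factor, changed mainly in batch 1, by 1.44 against 0.37 in batch 2, and its log2 fold change was 0.42 without YAP6SA 1. *Dusp5*, a phosphatase that turns off ERK in the nucleus, had 0.79 (adjusted p 0.00665). *Nr4a3* had the largest fold change of the list, 2.39, and was not called (adjusted p 0.0826). It had 0.524 and 1.11 CPM in GFP and 10.7 and 1.09 CPM in YAP6SA and was high in YAP6SA 1 alone.

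Several of the genes with large changes belong to the feedback arm of cAMP signalling, in which CREB and its CRTC coactivators switch on genes and the SIK kinases switch the coactivators off. Of 22 tested genes of this list 4 were called higher (1.31% of all tested genes were), *Nr4a1*, *Sik1*, *Irs2* and *Pde4b*, and 11 were higher and 2 lower at an unadjusted p under 0.05. The median was 0.34, with 0.46 in batch 1 and -0.01 in batch 2. *Nr4a1* is also counted among the immediate early genes above, and this list too was written with earlier results of these data known. *Sik1* had 40.02 and 36.2 CPM in GFP and 143 and 104 CPM in YAP6SA. The groups stood apart in both batches, and the log2 fold change was 1.68 (standard error 0.13, adjusted p 2.3e-07). *Irs2*, the insulin receptor substrate that responds to cAMP and fasting, had 20.4 and 12.95 CPM in GFP and 78.5 and 31.7 CPM in YAP6SA, a log2 fold change of 1.64 (adjusted p 1.5e-05). *Pde4b*, a phosphodiesterase that breaks down cAMP, was at 101 and 106 CPM in GFP and 164 and 166 CPM in YAP6SA, a log2 fold change of 0.68 (adjusted p 0.00322). *Ppargc1a*, *Per1* and *Crem* of the same list had 1.62, 1.84 and 1.17 in batch 1 and -0.37, -0.35 and -0.33 in batch 2. They were not called.

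The *Nr4a1* window is shown because the gene was called in every fit of 4 or 6 libraries and its start region holds several short CREB motifs. Capitals mark TGACG on either strand, which reads CGTCA where it lies on the other strand (RefSeq, GRCm38.p6).
*Nr4a1* (chr15:101266596-101266845, plus strand): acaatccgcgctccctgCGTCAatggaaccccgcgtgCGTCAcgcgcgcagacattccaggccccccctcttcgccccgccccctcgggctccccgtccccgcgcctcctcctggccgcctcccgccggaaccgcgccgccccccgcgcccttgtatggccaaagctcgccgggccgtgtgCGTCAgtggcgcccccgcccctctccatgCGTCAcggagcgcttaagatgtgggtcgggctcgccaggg
The 4 matches began 233, 213, 69 and 40 bases before the start. This short motif was common. It was in a window of 30.8% of the tested genes that had one, of 46 of 128 genes called higher (35.9%) and of 7 of 32 called lower (21.9%). Counted singly, 17.8% of all windows held it. Of the 18 CREB and SIK genes with a window 12 (66.7%) held it, a share that describes a list made of genes of this pathway. The window of *Irs2*, a called member, did not. TGACG is part of the longer motif TGACGTCA, which was in 3.1% of tested genes, in 7 of 128 genes called higher (5.47%), in 2 of 32 called lower (6.25%) and not in the *Nr4a1* window. *Sik1* had no entry.

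The median of sarcomere genes lay near that of all genes, and single members rose. Of 42 tested genes of the sarcomere and Z-disc 5 were called higher (1.31% of all tested genes were). At an unadjusted p under 0.05, 10 were higher and 7 lower, where 7.6% and 5.66% of all tested genes were. The 7 were not called. The list's median was 0.07, with 0.18 in batch 1 and -0.14 in batch 2. The 5 called were *Acta1*, *Actc1*, *Tpm1*, *Myl3* and *Ankrd1*. *Myl3*, the ventricular essential light chain, had 1218 and 1157 CPM in GFP and 1856 and 1895 CPM in YAP6SA, a log2 fold change of 0.66 (adjusted p 0.00718). The myosin heavy chain genes *Myh6* and *Myh7* had log2 fold changes of -0.24 and 0.04 and were not called (adjusted p 0.529 and 0.937), and the titin gene *Ttn* had -0.34 and was not called either. *Myh8*, a skeletal myosin gene that the study names, was below the filter, with 1 and 0 counts in GFP, 5 and 6 in YAP6SA and 536 and 1170 in YAP5SA OE CMs.

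Among 18 stress and hypertrophy markers tested, 5 were called higher (1.31% of all tested genes were), and the median was 0.21. *Acta1*, described above and also on the SRF and sarcomere lists, was 1 of the 5 and had the list's highest value, 2.10. *Ankrd1*, a nuclear and sarcomeric protein that rises under load and is also a YAP target, had 723 and 871 CPM in GFP and 1321 and 1591 CPM in YAP6SA. The difference was 0.87 in each batch, which gave a log2 fold change of 0.87 (standard error 0.13, adjusted p 0.000577). *Rcan1*, the feedback inhibitor of the phosphatase calcineurin, rose from 84.5 and 80.6 CPM to 151 and 136 CPM (log2 fold change 0.80, adjusted p 0.000888). *Gdf15*, a secreted stress cytokine, was at 3.46 and 1.95 CPM in GFP and 8.16 and 7.19 CPM in YAP6SA, with a log2 fold change of 1.53 (adjusted p 0.0248). *Nppb*, the B-type natriuretic peptide gene, had 329 and 165 CPM in GFP and 376 and 371 CPM in YAP6SA, and its change of 0.20 in batch 1 and 1.17 in batch 2 gave 0.68 (adjusted p 0.0347). Without GFP 2 that value was 0.02, so the call on *Nppb* rested on this library. *Nppa*, the atrial natriuretic peptide gene, had 0.23 (adjusted p 0.725).

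Other genes of muscle identity were called singly. *Hand2*, a transcription factor of ventricle formation, went from 67.7 and 81.4 CPM to 115 and 139 CPM (log2 fold change 0.77, adjusted p 0.00115). It overlaps *Hand2os1* on the other strand, with 23858 counts against its 7115, and reads were not separated by strand. *Trim55*, a ubiquitin ligase of the sarcomere, had 0.73 (adjusted p 0.00329), and *Ckm*, muscle creatine kinase, had 0.78 (adjusted p 0.00353). The value of *Trim55* was 0.46 without YAP6SA 2, and that of *Ckm* was 0.23 without GFP 1 and 1.39 without GFP 2. *Irx3*, a homeobox factor of the conduction system, was lower, with 40.4 and 63.5 CPM in GFP and 24.2 and 42.4 CPM in YAP6SA, a log2 fold change of -0.66 (adjusted p 0.0191), and its groups overlapped. *Ckm* and *Irx3* also overlap genes on the other strand.

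Outside these lists, *Kpna2*, an importin that carries proteins into the nucleus, had 269.5 and 38.6 CPM in GFP and 486 and 399 CPM in YAP6SA. GFP 2 was far below the other 3 libraries, and the difference was 0.85 in batch 1 and 3.37 in batch 2, with a log2 fold change of 2.07 (adjusted p 0.00131). *Krt18*, a keratin of simple epithelia, was at 1.10 and 2.41 CPM in GFP and 8.26 and 5.62 CPM in YAP6SA, with a log2 fold change of 2.03 (adjusted p 0.0132). *Mindy4b-ps*, annotated as protein coding, had 0.733 and 1.56 CPM in GFP and 4.06 and 3.75 CPM in YAP6SA and a log2 fold change of 1.83 (adjusted p 0.0456). Without GFP 1 the value of *Krt18* was 1.34 and that of *Mindy4b-ps* was 0.86. *Emd*, which encodes emerin of the nuclear envelope, was named after its values were seen. It rose from 14.6 and 11.97 CPM to 35.3 and 27.3 CPM, a log2 fold change of 1.23 (adjusted p 0.000595). *Thbs1*, which encodes the matrix protein thrombospondin-1 and was likewise chosen after its values were seen, had 11.9 and 2.02 CPM in GFP and 20.99 and 7.97 CPM in YAP6SA. GFP 1 was above YAP6SA 2, so its groups overlapped, and the log2 fold change was 1.28 (adjusted p 0.0184).

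The median of YAP/TEAD target genes, 0.08, stayed near that of all genes. Of 25 tested, 1 was called higher, *Ankrd1* (1.31% of all tested genes were). At an unadjusted p under 0.05, 5 were higher and 2 lower, where 7.6% and 5.66% of all tested genes were. The summed level of the 30 listed genes, *Ankrd1* included, was higher in YAP6SA by ratios of 1.25 and 1.39 in batches 1 and 2. *Ccn2*, the gene of connective tissue growth factor and a standard TEAD target, had 99.3 and 42.5 CPM in GFP and 96.9 and 132 CPM in YAP6SA. Its difference was -0.04 in batch 1 and 1.64 in batch 2, and the log2 fold change of 0.78 was not called (adjusted p 0.0939). *Ccn1*, its relative, had 126 and 87.3 CPM in GFP and 68.1 and 83.7 CPM in YAP6SA, both YAP6SA values below both GFP values, and its log2 fold change of -0.48 was not called (adjusted p 0.145). In YAP5SA OE CMs, by comparison, *Ccn2* was at 504 and 955 CPM and *Ccn1* at 249 and 656 CPM. Of 25 genes of the Hippo pathway, TEADs included, 0 were called by edgeR, DESeq2 or limma-voom, 3 were higher and 1 lower at an unadjusted p under 0.05, and the median was 0.08. *Tead4* had the largest value, 0.96 (adjusted p 0.328), at 1.47 and 1.95 CPM in GFP and 3.04 and 3.56 CPM in YAP6SA. *Tead1* had 219.8 and 238 CPM in GFP and 212 and 218 CPM in YAP6SA, a log2 fold change of -0.09.

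No cell cycle gene of these lists was called. Of 42 S phase genes tested, edgeR called 0. At an unadjusted p under 0.05, 6 were higher and 1 lower, where 7.6% and 5.66% of all tested genes were. Of the 42, 36 (85.7%) had a positive log2 fold change, where 50.3% of all tested genes did. The median was 0.23 against 0 for all tested genes. DESeq2 and limma-voom called 0 as well, and edgeR's likelihood ratio test called 1. *Dtl*, a ubiquitin ligase adaptor of S phase, had the highest value, 1.06 (adjusted p 0.124), with 3.93 and 3.19 CPM in GFP and 7.05 and 7.79 CPM in YAP6SA. *Mcm5* of the replicative helicase had 0.63 (adjusted p 0.139) and *Pcna*, the polymerase clamp, had 0.48 (adjusted p 0.333). Of 50 G2/M genes edgeR, DESeq2 and limma-voom called 0, 0 passed an unadjusted p under 0.05, and the median was 0.10. *Ccna2*, the cyclin of S and G2 phase, had 8.49 and 7.55 CPM in GFP and 8.01 and 9.55 CPM in YAP6SA, a log2 fold change of 0.13 (standard error 0.27), and its kinase *Cdk2* had 101 and 97.5 CPM in GFP and 96.2 and 112 CPM in YAP6SA, a log2 fold change of 0.06 (standard error 0.13). Neither was called (adjusted p 0.888 and 0.875).

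Genes of the respiratory chain lay mostly above 0, by a small amount. Of 82 nuclear genes of complexes I to IV and ATP synthase, all tested, 78 had a positive log2 fold change, where 50.3% of all tested genes did. Of the 82, 8 were called higher (1.31% of all tested genes were). Their median was 0.31, with 0.43 in batch 1 and 0.17 in batch 2. At an unadjusted p under 0.05, 46 were higher and 0 lower, where 7.6% and 5.66% of all tested genes were. *Ndufa1*, an accessory subunit of complex I, had 34.4 and 42.4 CPM in GFP and 63.3 and 61.2 CPM in YAP6SA, a log2 fold change of 0.71 (adjusted p 0.00945). *Cox6b1* of complex IV had 115 and 98.97 CPM in GFP and 186 and 139 CPM in YAP6SA, a log2 fold change of 0.60 (adjusted p 0.0108). In both genes each YAP6SA library was above both GFP libraries. The other 6 were *Ndufa8*, *Ndufa11*, *Ndufa4*, *Cox7c*, *Uqcrq* and *Atp5o*, with log2 fold changes of 0.52, 0.54, 0.57, 0.54, 0.57 and 0.57. Without YAP6SA 1 the values of *Ndufa1*, *Cox6b1*, *Ndufa8*, *Ndufa4*, *Cox7c* and *Uqcrq* lay between 0.28 and 0.45. DESeq2 called 1 gene of these complexes, in complex IV, and without the batch term 0 were called.

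Ribosomal protein genes lay mostly above 0 as well. Of 77 tested, 74 had a positive log2 fold change and the median was 0.25, with 0.34 in batch 1 and 0.19 in batch 2. At an unadjusted p under 0.05, 32 were higher and 0 lower, where 7.6% and 5.66% of all tested genes were. *Rps28* was called, at 0.54 (adjusted p 0.0466) and 0.27 without YAP6SA 1. It overlaps *Kank3* on the other strand, with 3677 counts against its 3606, and reads were not separated by strand. The summed level of these genes was 6650 and 5870 CPM in GFP and 8230 and 6570 CPM in YAP6SA. Its part in the respiratory chain values was not tested.

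Messenger RNAs of the mitochondrial genome were higher. Of 13, 10 were tested and 8 were called higher (1.31% of all tested genes were). The median of the 10 was 0.79, with 0.61 in batch 1 and 0.94 in batch 2. *mt-Cytb*, of complex III, had 1858 and 2176 CPM in GFP and 3072 and 4116 CPM in YAP6SA, a log2 fold change of 0.82 (adjusted p 0.00139). *mt-Co1*, of complex IV, had 6723 and 6220 CPM in GFP and 9942 and 11991 CPM in YAP6SA, a log2 fold change of 0.76 (adjusted p 0.00665). In both genes each YAP6SA library was above both GFP libraries. The complex I genes *mt-Nd1*, *mt-Nd2*, *mt-Nd4* and *mt-Nd5* had 0.73, 0.73, 0.72 and 0.76. *mt-Nd6*, at 1.04, lies on the other strand from *mt-Nd5* and overlaps it at its end alone. *mt-Co3*, also called, was at far lower levels, with 4.56 and 9.24 CPM in GFP and 12.1 and 14.7 CPM in YAP6SA (log2 fold change 1.03). Without GFP 2 the values of *mt-Nd1*, *mt-Nd2*, *mt-Nd4* and *mt-Co1* lay between 0.54 and 0.56. That of *mt-Co3* was 0.63 without GFP 1 and 1.45 without GFP 2. The preparation was of nuclei, and how much of this RNA was carried over from the cytoplasm was not tested. DESeq2 called 7 of these genes, and without the batch term 0 were called.

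Among genes that burn fatty acids a few fell. Of 28 genes of fatty acid oxidation, 3 were called lower (0.53% of all tested genes were), 0 were called higher, and the median was -0.11. At an unadjusted p under 0.05, 13 were lower and 3 higher, where 5.66% and 7.6% of all tested genes were. *Acsl1*, which activates fatty acids to acyl-CoA, had 663 and 682 CPM in GFP and 429.9 and 461 CPM in YAP6SA, a log2 fold change of -0.59 (adjusted p 0.0126). *Ucp3*, the mitochondrial uncoupling protein of muscle, had 561 and 656 CPM in GFP and 324 and 513 CPM in YAP6SA, a log2 fold change of -0.57 (adjusted p 0.0272). In both genes each YAP6SA library was below both GFP libraries. *Acadm*, the medium-chain acyl-CoA dehydrogenase, fell from 1122 and 1144 CPM to 695 and 899 CPM (log2 fold change -0.52, adjusted p 0.0453). Without YAP6SA 1 the values of *Acsl1*, *Ucp3* and *Acadm* were -0.40, -0.27 and -0.22. *Hadha*, of the trifunctional protein, had -0.48 and missed the threshold (adjusted p 0.0501). *Ucp3* overlaps *Gm10603* on the other strand, which had 1812 counts against its 35682.

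Of 25 genes of the TCA cycle 0 were called by edgeR or DESeq2 and 1 by limma-voom, and the median was 0.11. At an unadjusted p under 0.05, 2 were higher and 0 lower, where 7.6% and 5.66% of all tested genes were. *Idh3b*, a subunit of isocitrate dehydrogenase, had the highest value, 0.47 (adjusted p 0.052). *Pdk4*, the kinase that shuts pyruvate dehydrogenase off when fatty acids are burned, was called with a log2 fold change of 1.04 (standard error 0.22, adjusted p 0.0167). It had 692 and 177 CPM in GFP and 822 and 632 CPM in YAP6SA. GFP 2 alone was low and GFP 1 was above YAP6SA 2, so the groups overlapped, and the value was 0.22 without GFP 2 and 1.86 without GFP 1. Of 13 pentose phosphate genes edgeR, DESeq2 and limma-voom called 0, 0 passed an unadjusted p under 0.05, and the median was -0.13. Of 17 hypoxia response genes 3 were called higher (1.31% of all tested genes were), *Egln3*, *Pgk1* and *Ldha*, at 0.80, 0.60 and 0.56. *Pgk1* and *Ldha* encode enzymes of glycolysis and *Egln3* a prolyl hydroxylase of the oxygen sensor, and *Vegfa* of the same list had -0.03.

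**Figure D3:**
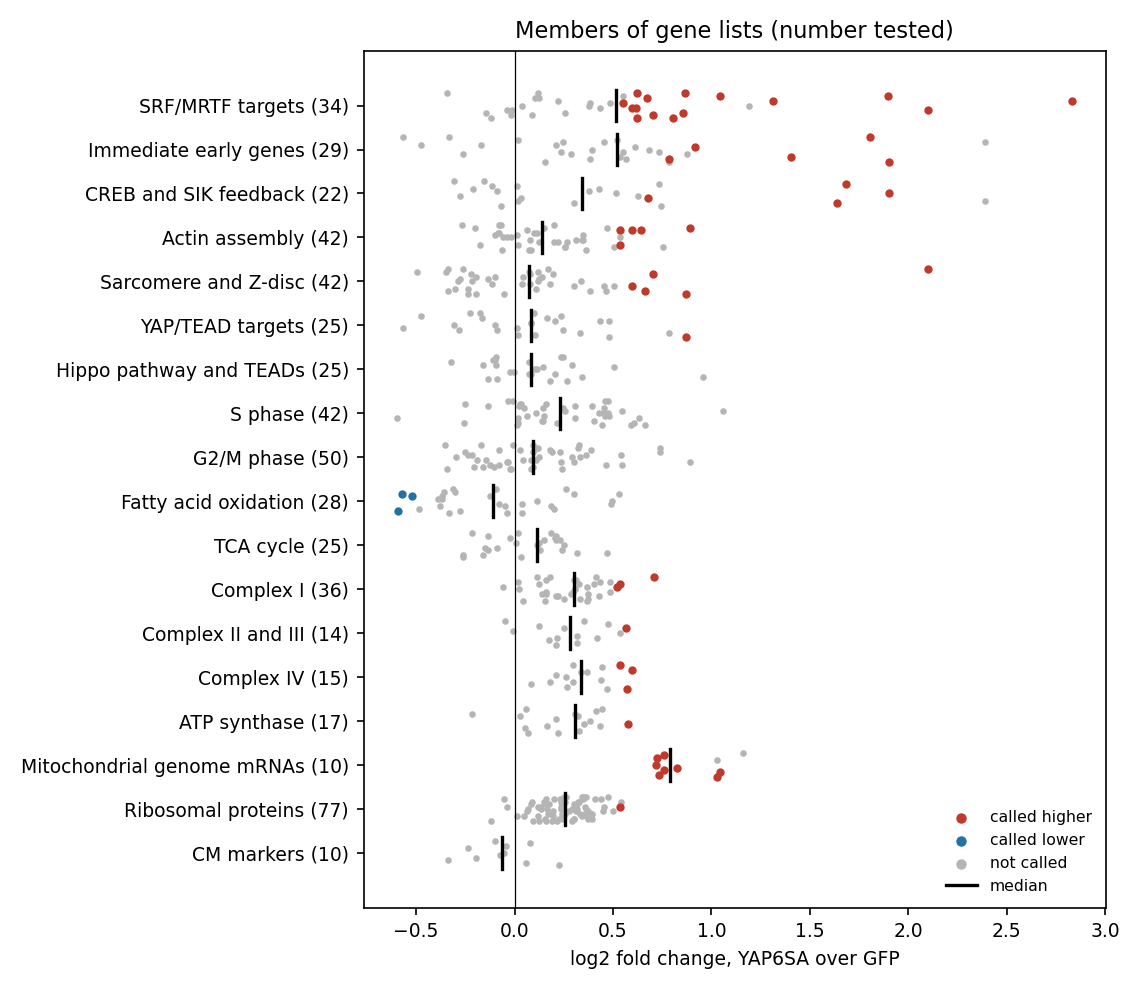
Log2 fold change of YAP6SA over GFP for each tested member of 18 gene lists, with members called higher in red, called lower in blue, not called in grey, and a black bar at each list's median. SRF/MRTF targets and immediate early genes have medians of 0.52 with members reaching beyond 2, respiratory chain and ribosomal protein genes lie in narrow bands near 0.3 and 0.25, and the fatty acid oxidation list holds the 3 members called lower.

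The 68 genes called lower included no list with more than 3 calls. The named genes with the largest decreases were *Platr32*, a noncoding RNA, *Rmdn1*, a regulator of microtubule dynamics, and *Hist1h1c*, a linker histone. *Rmdn1* (chr4:19575162-19606932, plus strand) had 305 and 338 CPM in GFP and 87.6 and 184 CPM in YAP6SA. Both YAP6SA libraries were below both GFP libraries, and the log2 fold change was -1.33 (standard error 0.16, adjusted p 7e-05). *Hist1h1c* had 40.02 and 17.4 CPM in GFP and 10.7 and 11.7 CPM in YAP6SA, a log2 fold change of -1.26 (adjusted p 0.00665), with -1.89 in batch 1 and -0.57 in batch 2. Its value was -0.70 when YAP6SA 1 was left out. *Platr32* had 7.86 and 18.4 CPM in GFP and 3.09 and 5.86 CPM in YAP6SA and -1.51 (adjusted p 0.00393). The transcription factor gene *Grhl2* had 32.7 and 21.2 CPM in GFP and 14.8 and 9.42 CPM in YAP6SA, a log2 fold change of -1.15 (adjusted p 0.00139) that was nearly equal in the batches. *Plcl2*, a phospholipase C-like protein without the enzyme's activity, had 43.1 and 75.02 CPM in GFP and 18.96 and 39.9 CPM in YAP6SA, a log2 fold change of -1.04 (adjusted p 0.000409). *Snai3*, a repressor of the Snail family that was named for being the extreme of all tested genes, had 60 and 42 counts in GFP and 2 and 5 in YAP6SA, a fitted log2 fold change of -3.88 (adjusted p 0.00139) that depends on these few counts.

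*Ifngr2*, a chain of the interferon gamma receptor, had 126 and 139 CPM in GFP and 60.3 and 78.8 CPM in YAP6SA. The groups stood apart, with a log2 fold change of -0.94 (standard error 0.13, adjusted p 0.000217). *Csf1*, the growth factor of macrophages, had 103 and 91.03 CPM in GFP and 66.1 and 56 CPM in YAP6SA, a log2 fold change of -0.67 (adjusted p 0.0052). It ran from -1.16 without YAP6SA 1 to -0.22 without GFP 1. *Csf1* was the 1 gene called of 13 chemokines and cytokines tested (0.53% of all tested genes were called lower). Of the 13, 8 had a positive log2 fold change, and the median was 0.32. At an unadjusted p under 0.05, 3 were higher and 1 lower, where 7.6% and 5.66% of all tested genes were. *Fgf9*, a growth factor of heart development, had -0.83 (adjusted p 0.00681), and *Enpp1*, an enzyme that makes pyrophosphate outside the cell, had -0.81 (adjusted p 0.0279). Of 25 interferon response genes 1 was called lower and 2 higher, where 0.53% and 1.31% of all tested genes were. The list median was 0.07. The called genes were *Mx2* at -0.99 and the antigen-presentation genes *H2-D1* and *H2-K1* at 0.56 and 0.58. These 3 values were -0.55 without GFP 2, and 0.37 and 0.31 without YAP6SA 1.

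Genes of calcium handling went both ways, with 2 of 25 called in each direction and a median of 0.06. Over all tested genes 1.31% were called higher and 0.53% lower. *Trdn*, which encodes triadin of the calcium release complex, had 377 and 367 CPM in GFP and 226 and 284 CPM in YAP6SA, a log2 fold change of -0.56 (adjusted p 0.0261). *Ppp3ca*, the catalytic subunit of calcineurin, had 103 and 112 CPM in GFP and 73.9 and 74.7 CPM in YAP6SA, a log2 fold change of -0.53 (adjusted p 0.0273), while its regulator *Rcan1* and the calcium sensor *S100a1* (0.49, adjusted p 0.0439) were higher. The pump, channel and receptor genes *Atp2a2*, *Cacna1c* and *Ryr2* had 0.06, -0.19 and 0.06 and were not called. *Arel1*, a ubiquitin ligase that the study names, had 92.2 and 129.9 CPM in GFP and 66.9 and 80.1 CPM in YAP6SA, a log2 fold change of -0.58 (adjusted p 0.0172), and overlaps *Fcf1* on the other strand, with 2660 counts against its 6402. *Mir99ahg*, a long noncoding RNA that hosts microRNAs, had 154 and 180.2 CPM in GFP and 70.8 and 122 CPM in YAP6SA, a log2 fold change of -0.84 (adjusted p 0.00139). *Tor3a*, a torsin family gene, and *Synj2bp*, a protein of the outer mitochondrial membrane, had -0.83 and -0.81 (adjusted p 0.0424 and 0.0401). *Synj2bp* was at -0.49 without YAP6SA 1 and *Ppp3ca* at -0.34 without YAP6SA 2.

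**Figure D4:**
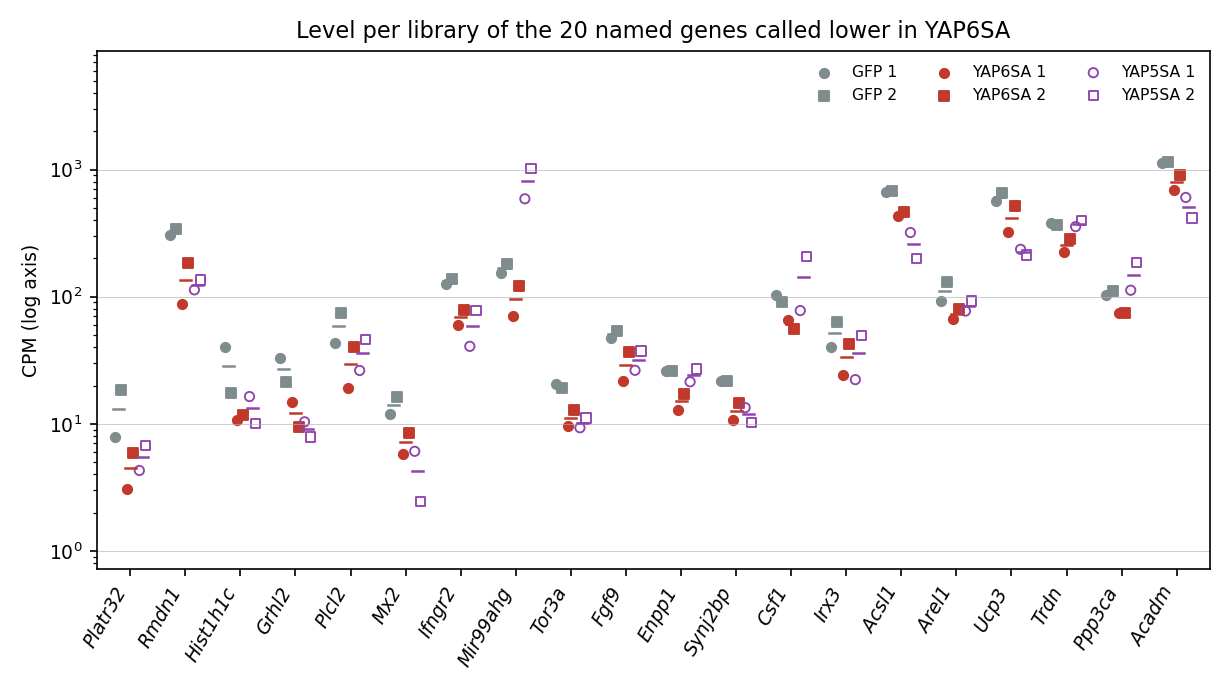
CPM per library (log axis) of the 20 named genes called lower in YAP6SA, ordered by fold change, with circles for batch 1, squares for batch 2, filled grey for GFP, filled red for YAP6SA, open purple for YAP5SA, and a line at each group mean of 2 libraries. *Rmdn1* falls from 305 and 338 CPM to 87.6 and 184 CPM, and *Mir99ahg* stands out for its YAP5SA points, at 589 and 1022 CPM.

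Markers of other cell types were present, and most of their sums were higher in YAP6SA. The 10 CM markers summed to 56100 and 75300 CPM in GFP and 51600 and 68100 CPM in YAP6SA, and none was called by edgeR, DESeq2 or limma-voom, with 1 lower at an unadjusted p under 0.05 and a median of -0.07. *Tnnt2*, whose promoter drives the cassette, was at 14993 and 17562 CPM in GFP and 13839 and 21088 CPM in YAP6SA. The 12 fibroblast markers summed to 1770 and 1090 CPM in GFP and 2320 and 1250 CPM in YAP6SA, all 12 had a positive log2 fold change (median 0.34), and *Gsn* was called. The 12 endothelial markers summed to 810 and 622 CPM and to 1020 and 678 CPM, with *Cldn5* and *Fabp4* called at 0.96 and 0.63. The fibroblast and endothelial sums were higher in YAP6SA than in GFP within each batch, and higher in batch 1 than in batch 2.

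Mural and smooth muscle markers bear on *Acta2*, which is one of them. With *Acta2* the 12 markers summed to 1220 and 1130 CPM in GFP and 2790 and 2380 CPM in YAP6SA. Without it the other 11 summed to 953 and 990 CPM and to 1240 and 1130 CPM, ratios of 1.3 and 1.14 in batches 1 and 2. The pericyte gene *Rgs5* was called at 0.85 (adjusted p 0.0153) with overlapping groups, 20.6 and 10.6 CPM in GFP and 40.2 and 17.6 CPM in YAP6SA. *Myh11*, the smooth muscle myosin, and *Pdgfrb*, the receptor of mural cells, had log2 fold changes of 0.09 and 0.07, *Cnn1* had 1.19 (adjusted p 0.239) with 1.83 and 0.716 CPM in GFP and 4.41 and 1.51 CPM in YAP6SA, and *Tagln* was under the filter. The macrophage markers summed to 73.7 and 106 CPM in GFP and 91.7 and 121 CPM in YAP6SA, with 8 of 12 tested and 0 called by edgeR, DESeq2 or limma-voom (2 higher at an unadjusted p under 0.05). No marker of any list was at 0 in all 4 libraries. In bulk RNA fewer nuclei of a type and less RNA per nucleus cannot be told apart, and the part of other cell types in the genes called higher was not tested.

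**Figure D5:**
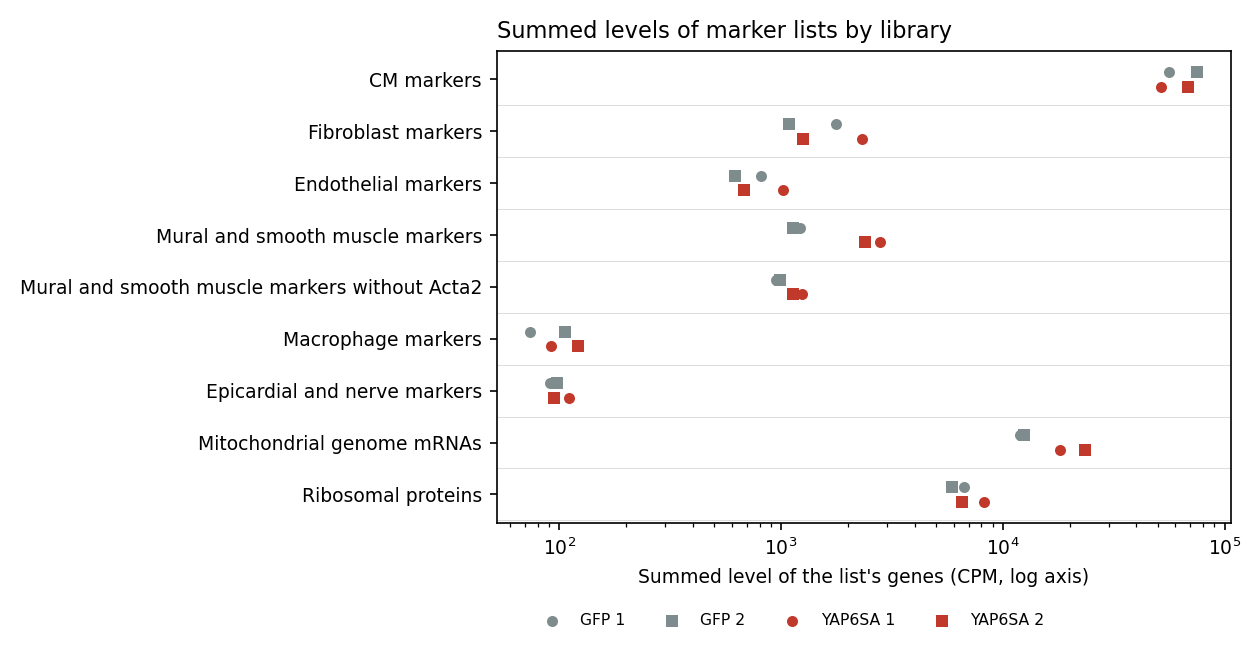
Summed CPM (log axis) of the genes of 9 marker lists in each of the 4 libraries, with grey for GFP, red for YAP6SA, circles for batch 1 and squares for batch 2. The fibroblast, endothelial and macrophage sums lie to the right of GFP within each batch by ratios of 1.09 to 1.32, the mural list moves by 2.28 and 2.1 with *Acta2* and by 1.3 and 1.14 without it, and the CM markers move by 0.92 and 0.905.

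The genes called in YAP6SA were then read in the direct test of YAP5SA against YAP6SA, 2 libraries each with batch as a term, in which 1916 of 13206 genes (14.5%) were called. Since this test shares the YAP6SA libraries with the comparison above, its result for these genes is not independent of their calls. Of the 236 genes 230 were tested and 61 were called. Among those higher in YAP6SA than in GFP, 17 were higher still in YAP5SA and 31 had a lower level in YAP5SA OE CMs. Of those lower in YAP6SA, 7 were higher and 6 lower still in YAP5SA. The count was 62 in the fit of 6 libraries and 14 without the batch term. It went down or up when a library was left out, in fits that also held the GFP libraries.

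*Acta1* differed most among the named genes that were lower in YAP5SA, with 61.9 and 11.95 CPM there against 173 and 98.8 CPM in YAP6SA, a log2 difference of -2.22 (adjusted p 0.000136). *Pdk4* had 281 and 234 CPM in YAP5SA and a difference of -1.48 (adjusted p 0.000208). *Nr4a1* and *Sik1* were also lower in YAP5SA than in YAP6SA, at 192 and 118 CPM for *Nr4a1* and 96.4 and 65.4 CPM for *Sik1*, with differences of -0.67 and -0.61 (adjusted p 0.0314 and 0.0348). *Ankrd1* was higher in YAP5SA, at 3413 and 4797 CPM, by 1.49 (adjusted p 0.00113), and so was *Cnn2*, at 213 and 265 CPM, by 1.85 (adjusted p 0.000139). For *Acta2* the difference was 0.19 with a standard error of 0.23 (adjusted p 0.65), and for *Srf* it was -0.39 with a standard error of 0.19 (adjusted p 0.205). In these 2 genes a difference between the variants was not detectable with 2 libraries each. The structural change between the variants is the added serine-to-alanine change of YAP6SA, and the protein levels of the cassettes were not measured in these data.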

How the data were processed

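RNA of PCM-1-positive nuclei was sequenced in 2 GFP, 2 YAP6SA and 2 YAP5SA libraries of wild-type mouse hearts. The values used were counts, which the authors deposited as 1 table of whole read counts per gene and library. The submitters' processing notes name STAR, the mm10 (GRCm38) build, Ensembl annotation 94 and edgeR, and the counter is not given in the sources used here. Ensembl identifiers were paired with symbols through a GRCm38 annotation, which named 54495 of 54532 genes.

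Rows that name no gene (unmapped reads, 3.03% to 3.63% of a library, multimapped reads, 2.9% to 4.19%, reads outside genes, 9.43% to 9.84%, and ambiguous reads, 5.79% to 6.31%) were left out of library sizes and tests. Genes with a median log2 CPM over 1 in GFP or YAP6SA were kept. The 4 libraries were scaled by TMM and fitted in edgeR 4.0.16 (R 4.3.3) with group and batch, which leaves 1 residual degree of freedom per gene, and the quasi-likelihood test was adjusted by Benjamini-Hochberg over the 12835 genes. Standard errors are the log2 fold change divided by the root of the test statistic. YAP5SA was compared with YAP6SA in the same way in 4 libraries. CPM values are on library sizes scaled by TMM factors from all 6 libraries, and lists' summed levels are sums of these CPM. Differences within a batch are of log2 CPM with the factors of the 4 libraries and a prior count of 2. The batch block comes from the labels, where the replicate number is the batch, and deviations of same-numbered GFP and YAP6SA libraries from their group means correlated by 0.403 across genes. Libraries held 16362077 to 19615627 counts in genes, so an observed 0 allows up to 3 counts, by counting error only. These are 0.153 to 0.183 CPM on the totals before TMM scaling. Every column of values was assigned to a sample.

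Named genes were the 12 with the largest log2 fold change in each direction among eligible called genes. Eligible genes had 1 direction in both batches and a log2 CPM that averaged 1 or more, with clone and model names left out. Called members of the 44 gene lists, genes that the study names, TEAD targets and *Yap1* were added. The lists held 978 matched genes, and 1 further entry was unmatched. List members not called are given as the highest and lowest of a list and as examples. The members of the comparison and the lists were chosen with earlier results of these data known. Alternatives were RLE and upper quartile scaling, no filter, at least 10 counts per library, the likelihood ratio test, the earlier and later quasi-likelihood settings, DESeq2 1.42.0, limma-voom (limma 3.58.1), no batch term, all 6 libraries, thresholds of 0.01 and 0.1, and each library left out. Fits with a library left out were made on the rest of the 6 libraries, whatever their group. The fits and their calling were tested on simulated data. Promoter windows of 250 bases came from RefSeq (GRCm38.p6) by symbol and were searched on both strands. Results of some of the listed genes are not reported here.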

Additional observations from a re-analysis of the deposited data

Results flagged for a closer look

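A group of 2 libraries is too small to single out a library by its distance from the others, so the results below are those where YAP5SA OE CMs differed from YAP6SA OE CMs by the direct test (edgeR quasi-likelihood, 2 libraries each with batch as a term, adjusted p under 0.05). Values are log2 differences of YAP5SA over YAP6SA. The test shares the YAP6SA libraries with the comparison to GFP.

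The 3 YAP/TEAD targets named here were higher in YAP5SA. *Ccn2* differed by 2.63 (adjusted p 2.2e-06), *Ccn1* by 2.43 (1.7e-05) and *Ankrd1* by 1.49 (0.00113). Of these *Ankrd1* was also called in YAP6SA against GFP. *Mpdz*, the gene of the scaffold protein, was higher by 1.34 (0.000335) and *Ccna2*, the cyclin gene, by 1.43 (0.00204). *Cnn2* (calponin) was higher by 1.85 (0.000139), *Tagln2* (transgelin-2) by 0.99 (0.0154), *Tuba1a* (a tubulin) by 1.02 (0.0189), *Fosl2* (an AP-1 factor) by 1.18 (0.00181) and *Nppb* (a natriuretic peptide) by 0.86 (0.0199).

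Of the 7 genes that were called lower in YAP6SA than in GFP and were higher in YAP5SA than in YAP6SA, 3 are named here. They were *Mir99ahg*, by 3.08 (4.5e-07), *Csf1*, by 1.08 (0.0225), and *Ppp3ca*, by 0.97 (0.00498). The noncoding *Mir99ahg* had the largest difference of all these genes.

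The following 8 genes were lower in YAP5SA than in YAP6SA. *Acta1* differed by -2.22 (0.000136), *Pdk4* by -1.48 (0.000208), *Ckm* by -1.21 (0.00546), *Ucp3* by -0.85 (0.0177) and *Acsl1* by -0.81 (0.0233). Of these *Ucp3* and *Acsl1* were already lower in YAP6SA than in GFP. *Nr4a1* was lower by -0.67 (0.0314), *Sik1* by -0.61 (0.0348) and *Dstn* by -0.63 (0.0324), all of which were called higher in YAP6SA than in GFP.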

How the results depend on the processing

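All called genes kept their direction under every alternative in which they had a value, while the number of calls depended on the fit. Against 168 higher and 68 lower, no filter gave 280 and 127, DESeq2 74 and 27, a threshold of 0.01 75 and 27, and a threshold of 0.1 265 and 137. Lower calls alone moved by more than 1.5 times with upper quartile scaling (42), at least 10 counts (105) and the likelihood ratio test (110), with 129, 238 and 240 higher. The fit of all 6 libraries gave 6 higher and 0 lower, with 514 and 276 at an unadjusted p under 0.05. With a library left out there were 6 to 11 higher and 0 to 3 lower, in fits where the lone library of a group is assumed to vary like the other groups. The replicate number pairs the libraries by batch, and without the replicate block 4 genes were higher and 0 lower, with 427 and 246 at an unadjusted p under 0.05. Called list members numbered 78, against 39 with DESeq2, 4 without the block, 6 in all 6 libraries and 5 to 9 with a library left out. Of the called genes 61 differed between YAP5SA and YAP6SA, 14 without the block and 7 to 107 with a library left out, both added after seeing the data. The cause of these changes was not tested.

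The sign turned in genes that were not called when a library was left out. *Mpdz* ran from -0.17 (without YAP6SA 1, and -0.03 without GFP 1) to 0.26, *Yap1* from -0.28 to 0.08 (without YAP6SA 1), *Ccn1* from -1.14 to 0.24 (without GFP 1), *Ccn2* from -0.15 (without GFP 2) to 1.76, *Cdk2* from -0.05 (without YAP6SA 2, and -0.02 without GFP 2) to 0.17, and *Ccna2* from -0.08 (without GFP 2) to 0.34. With 2 libraries per group and 1 residual degree of freedom, the spread of a gene is borrowed from other genes. Some genes of a few CPM were called where the change was large. For example, *Krt18* had 1.10 and 2.41 CPM in GFP and 8.26 and 5.62 CPM in YAP6SA. A smaller difference at such levels could go undetected.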

Other observations

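Other listed genes of metabolism and signalling were called singly. Of 29 genes of insulin and IGF signalling 2 were called higher (1.31% of all tested genes were), *Irs2* and *Igfbp4*, a binding protein that sequesters IGF. *Igfbp4* had 22.7 and 11.8 CPM in GFP and 37.4 and 22.4 CPM in YAP6SA, a log2 fold change of 0.82 (edgeR adjusted p 0.0177), with overlapping groups, and the list median was -0.01. Of 19 clock genes *Bhlhe40*, a repressor of the clock that many stimuli induce, was called at 0.63 (adjusted p 0.0308), from 54.96 and 75.7 CPM in GFP and 110.4 and 90.4 CPM in YAP6SA. *Per1*, a clock gene that glucocorticoids and cAMP induce, was at 45.1 and 104 CPM in GFP and 162 and 81.3 CPM in YAP6SA, highest in YAP6SA 1, and was not called (adjusted p 0.241). Of 12 glucocorticoid response genes *Pdk4* was the 1 called and the median was 0.24, with 0.36 in batch 1 and 0.01 in batch 2.

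Of 19 genes of FOXO factors and muscle ubiquitin ligases, *Trim55* was called higher and *Arel1* lower, with a median of 0.03. Of 30 genes of CM differentiation 3 were called higher, *Srf*, *Ankrd1* and *Hand2*, and 1 lower, *Irx3*, with a median of -0.08. Over all tested genes 1.31% were called higher and 0.53% lower. Of 24 skeletal muscle genes 9 were tested, *Ckm* was called and the median was 0.02. The 7 long noncoding RNAs of the nucleus that were tested had a median of 0.02 and 0 calls by edgeR, DESeq2 or limma-voom (1 lower at an unadjusted p under 0.05). *Neat1*, which builds paraspeckles, was at 3854 and 5038 CPM in GFP and 5187 and 3845 CPM in YAP6SA, and *Malat1*, a nuclear speckle RNA, was at 850.2 and 861 CPM in GFP and 884 and 1069 CPM in YAP6SA.

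The 9 erythroid markers summed to 50.5 and 60.2 CPM in GFP and 63.8 and 25.4 CPM in YAP6SA, and 2 of them were tested, with 0 calls by edgeR, DESeq2 or limma-voom and 1 lower at an unadjusted p under 0.05. The 11 epicardial and nerve markers summed to 90.4 and 97.9 CPM and to 110 and 94.8 CPM, with 7 tested, 0 called by the same tools and 2 higher at an unadjusted p under 0.05. The 5 sex genes had 0 calls by the same tools and 0 at an unadjusted p under 0.05.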
